A study of Mus musculus with 6 samples.

Results

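Immunoglobulin variable (V) segments are the gene pieces from which B cells build the antigen-binding end of their antibodies, and their use was described in bulk RNA-seq libraries of mouse tumours. They were taken as every gene symbol that begins with Ighv, Igkv or Iglv followed by a digit and that had at least 1 read count in any library. Of 346 symbols with such a name, 172 met this rule, out of 55291 genes in the table and 33054 with at least 1 count. They comprised 84 heavy chain segments (Ighv) of 183 listed, 85 kappa light chain segments (Igkv) of 160 and 3 lambda light chain segments (Iglv) of 3.

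CT2A is a mouse glioma line, and the libraries were made from tumours that it formed under the skin of Siglece knockout (KO) mice (3 libraries) and of wild-type (WT) mice (3 libraries). Siglece encodes Siglec-E, an inhibitory sialic-acid-binding receptor of myeloid cells. The labels give no age, strain or treatment, name no sort or gate, and do not say how the knockout was made or whether each library is a separate animal. Their source entry reads brain while their tissue entry names the subcutaneous tumour, which was followed. Libraries are numbered 1 to 3 within a genotype only to name them.

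In a developing B cell the enzyme RAG joins 1 V segment to a diversity (D) and a joining (J) segment of the heavy chain locus, and 1 V to 1 J segment of a light chain locus. Descendants of a B cell that has finished joining both chains generally carry the same joined segments. Plasma cells, the antibody-secreting end stage of the lineage, hold very large amounts of the resulting mRNA. The V segment gives the first 2 antigen-contacting loops and the start of the third loop (CDR3), which begins after a conserved cysteine near the segment's 3′ end.

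The segments that carried the largest shares of V counts are shown first, 5′ to 3′, as the 3′ ends of their spliced GENCODE M21 transcripts on the mm10 build, with the codon of the conserved cysteine in capitals. These are reference sequences, and the rearranged, possibly mutated sequences of the tumours were not analysed here. All are annotated as functional V genes, and the bases shown lie in the V exon. The leading heavy and kappa segments of KO library 1, Ighv14-4 (chr12:114176438-114176867, minus strand) and Igkv8-19 (chr6:70340876-70341453, minus strand), are given over 240 bases.
Ighv14-4: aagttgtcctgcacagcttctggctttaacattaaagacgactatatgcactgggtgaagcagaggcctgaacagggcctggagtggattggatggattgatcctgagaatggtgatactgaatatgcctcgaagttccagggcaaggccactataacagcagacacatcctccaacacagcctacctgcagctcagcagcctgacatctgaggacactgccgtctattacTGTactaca
Igkv8-19: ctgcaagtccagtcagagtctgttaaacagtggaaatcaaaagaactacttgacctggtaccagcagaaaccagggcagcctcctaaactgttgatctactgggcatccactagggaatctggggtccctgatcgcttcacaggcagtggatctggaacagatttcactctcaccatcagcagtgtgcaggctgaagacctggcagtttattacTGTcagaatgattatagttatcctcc

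6 heavy chain segments of the Ighv1 family are given over their last 90 bases. Ighv1-81 and Ighv1-39 led the heavy chain counts of KO libraries 2 and 3, Ighv1-69 was second in KO library 2, Ighv1-82 was among the 6 heavy segments with the highest mean level, and Ighv1-80 and Ighv1-9 were among the 10 segments with the smallest p in the test below. Ighv1-81 lies at chr12:115920279-115920712, Ighv1-80 at chr12:115912344-115912776, Ighv1-82 at chr12:115952538-115953005, Ighv1-69 at chr12:115623161-115623595, Ighv1-39 at chr12:114914599-114915032 and Ighv1-9 at chr12:114583569-114584002, all on the minus strand.
Ighv1-81: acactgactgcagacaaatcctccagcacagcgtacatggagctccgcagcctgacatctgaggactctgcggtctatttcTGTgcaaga
Ighv1-80: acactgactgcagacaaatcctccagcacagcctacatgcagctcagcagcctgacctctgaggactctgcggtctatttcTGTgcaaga
Ighv1-82: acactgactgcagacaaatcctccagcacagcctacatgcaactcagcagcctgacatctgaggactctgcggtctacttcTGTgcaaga
Ighv1-69: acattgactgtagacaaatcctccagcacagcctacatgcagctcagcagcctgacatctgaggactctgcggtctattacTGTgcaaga
Ighv1-39: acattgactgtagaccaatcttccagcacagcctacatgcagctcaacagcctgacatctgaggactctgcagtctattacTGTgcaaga
Ighv1-9: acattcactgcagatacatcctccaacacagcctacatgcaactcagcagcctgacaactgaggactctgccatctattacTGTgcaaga
Over these 90 bases Ighv1-81 differed from Ighv1-80 at 4 positions and from Ighv1-82 at 5, and how the authors treated reads that align to several such copies is not given. Ighv14-4 differed from Ighv1-81 at 16 of them.

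Light chain segments are given in the same way. Igkv1-110 (chr6:68270485-68271267) and Igkv1-117 (chr6:68121046-68121827) are on the plus strand and were among the segments seen in every library. Igkv6-17 (chr6:70371439-70371993, plus strand) led the kappa counts of KO library 2, Igkv8-24 (chr6:70216858-70217421, minus strand) led those of KO library 3, and Igkv8-30 (chr6:70117061-70117620, minus strand) passed the test below. Iglv1 (chr16:19085017-19085500, minus strand) was the most used lambda segment of all 6 libraries.
Igkv1-110: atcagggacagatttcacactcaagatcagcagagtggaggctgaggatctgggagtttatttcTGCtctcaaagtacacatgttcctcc
Igkv1-117: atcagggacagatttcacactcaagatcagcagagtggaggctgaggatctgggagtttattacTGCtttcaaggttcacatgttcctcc
Igkv6-17: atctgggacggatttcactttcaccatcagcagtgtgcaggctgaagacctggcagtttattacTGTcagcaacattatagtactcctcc
Igkv8-24: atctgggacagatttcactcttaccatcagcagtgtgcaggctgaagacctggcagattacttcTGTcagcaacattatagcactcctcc
Igkv8-30: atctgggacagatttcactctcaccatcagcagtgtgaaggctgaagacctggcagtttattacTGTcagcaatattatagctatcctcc
Iglv1: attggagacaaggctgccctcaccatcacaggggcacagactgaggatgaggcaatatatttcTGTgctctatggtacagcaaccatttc
Igkv1-110 and Igkv1-117 differed at 4 of these 90 bases, and Igkv8-24 and Igkv8-30 at 8.

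V segments were far more abundant in KO than in WT tumours. Their counts summed to 18632, 2136 and 9806 in KO libraries 1 to 3, against 206, 92 and 560 in WT libraries 1 to 3. Scaled to library size, these were 633.8, 60.8 and 488.9 CPM in KO libraries and 5.63, 2.62 and 16.7 CPM in WT libraries, where 1 CPM is 1 count in every 1000000 counts of the scaled library. The summed level averaged 394.5 ± 297.9 CPM over KO libraries and 8.30 ± 7.39 CPM over WT libraries (SD, n = 3 each). The groups did not overlap, and KO library 2 lay between the other KO libraries and the WT libraries. In bulk samples, more cells that carry V transcripts and more V transcript per cell cannot be told apart.

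All 3 loci contributed in every library. Ighv segments had 7916, 960 and 4010 counts in KO libraries and 75, 45 and 188 in WT libraries. Igkv segments had 9890, 1098 and 4927 counts in KO libraries, against 124, 38 and 337 in WT libraries. Iglv segments, the smallest locus in the mouse, had 826, 78 and 869 counts in KO libraries and 7, 9 and 35 in WT libraries. As a share of V counts, Ighv took 42.8 ± 2.04% in KO and 39.6 ± 8.16% in WT, and Igkv took 51.6 ± 1.43% in KO and 53.9 ± 10.9% in WT (SD, n = 3 each), so that the balance of the loci differed between groups by less than the SD among WT libraries.

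Several other transcripts also differed between KO and WT libraries. Of the constant genes, to which rearranged V segments are spliced, 3 of 6 tested heavy chain and 3 of 4 tested light chain genes were higher in KO by edgeR's quasi-likelihood test at an adjusted p below 0.05. Of all 18621 genes tested, 11.2% were higher in KO and 0.226% lower. Among B cell markers 4 of 9 tested were higher, among plasma cell markers 6 of 9, among germinal centre genes 1 of 5 and among the recombination and pre-B genes 0 of 1. None of the genes in these lists was called lower. Pax5, Cr2 and Bank1, which B cells express, had higher mean levels in WT and did not pass. The same held for Mki67 and S1pr2 of the germinal centre list. That list summed to 224.9, 278.7 and 127.9 CPM in KO libraries, against 389.2, 346.9 and 384.5 CPM in WT libraries. Genes of other immune cells were also higher, 6 of 7 tested for T cells, 4 of 5 for macrophages and 1 of 3 for neutrophils. Genes of the glioma and of neural cells summed to 66.5, 548.7 and 44.4 CPM in KO libraries and 774, 777.8 and 799.8 CPM in WT libraries, with 3 of 6 tested lower in KO. KO library 2, lowest of the KO libraries in V counts, was the one nearest to WT by that sum. Mitochondrially encoded genes took 1.92, 2.11 and 4.40% of counts in KO libraries, against 0.717, 1.13 and 1.11% in WT libraries. The part of tumour content and cell make-up in the V levels was not tested. Siglece had 0, 8 and 0 counts in KO libraries and 74, 99 and 64 in WT libraries, in the direction of the labels.

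The RAG genes that cut V segments, Rag1 and Rag2, had 3, 0 and 0 and 1, 0 and 0 counts in KO libraries, and 0, 0 and 1 and 0, 0 and 0 in WT libraries. Of the rest of that list, Dntt, which adds bases at the joins, had 28, 22 and 44 counts in KO libraries and 7, 9 and 0 in WT libraries (log2 fold change 3.02, SE 1.08, edgeR adjusted p = 0.108). Vpreb1, part of the surrogate light chain of precursor B cells, had 7, 5 and 26 counts in KO libraries and 12, 4 and 0 in WT libraries. Vpreb2 and Igll1 had at most 2 counts in any library. Jchain, which links antibodies into polymers, had 5174, 777 and 4305 counts in KO libraries and 224, 37 and 181 in WT libraries. Its level was 176, 22.1 and 214.6 CPM in KO libraries, against 6.12, 1.05 and 5.39 CPM in WT libraries, so that KO library 2 was the lowest KO library and WT library 2 the lowest of all, as for the V segments.

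More different V segments were seen in each KO library than in any WT library at full depth, and the groups overlapped once V counts were made equal. At 1 count or more, 136, 92 and 124 segments were seen in KO libraries and 39, 42 and 80 in WT libraries, a mean of 117.3 ± 22.7 in KO and 53.7 ± 22.9 in WT (SD, n = 3 each). At 10 counts or more, 80, 34 and 94 were seen in KO libraries, against 6, 0 and 15 in WT libraries. When each library was thinned analytically to 92 V counts, the total of WT library 2, the expected number was 26.4, 30.4 and 43.4 in KO libraries, and 30.4, 42 and 42.3 in WT libraries. At this equal number KO library 1 had the lowest value, and KO library 3 and WT libraries 2 and 3 lay close together. At 560 V counts the expected numbers were 63.6, 68.9 and 87.5 in KO libraries, against the 80 seen in WT library 3.

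**Figure D1:**
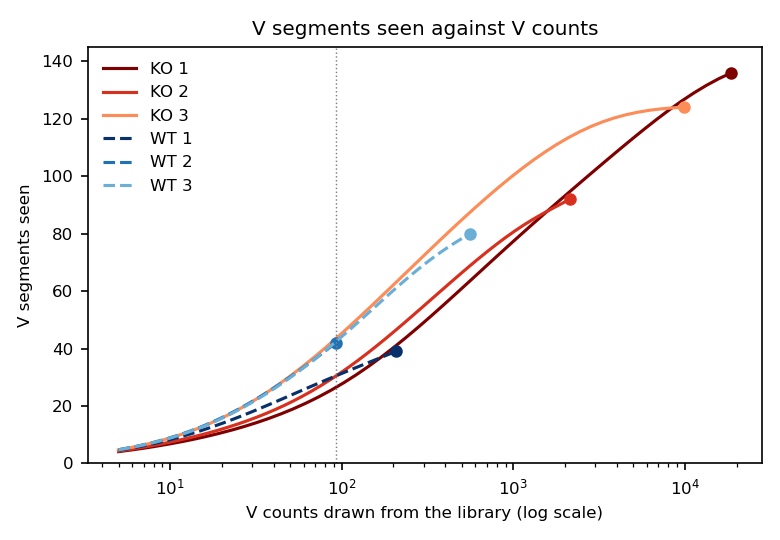
Expected number of V segments seen (y axis) against the number of V counts drawn from a library (x axis, log scale), for KO libraries (red, solid) and WT libraries (blue, dashed), with filled points at each library's full V total and a dotted line at 92 counts. The KO curves run on to 136, 92 and 124 segments and the WT curves end at 39, 42 and 80, while at 92 counts both groups lie between 26.4 and 43.4.

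Counts on annotated pseudogenes were rare. Of 216 segments annotated as functional V genes 165 were seen, 79 of 113 Ighv, 83 of 100 Igkv and 3 of 3 Iglv. Of 130 annotated V pseudogenes 7 were seen, and they held 34 of the 31432 V counts, or 0.108% (95% Wilson interval 0.0774 to 0.151%, counting error only).

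Segment use was concentrated in KO libraries 1 and 2 and broad in KO library 3. The 10 leading segments held 76.9% (95% Wilson interval 76.3 to 77.5), 70.6% (68.6 to 72.4) and 44.0% (43.0 to 45.0) of V counts in KO libraries. They held 59.7% (52.9 to 66.2), 50% (40.0 to 60.0) and 48.2% (44.1 to 52.4) in WT libraries. The means were 63.8 ± 17.5% in KO and 52.6 ± 6.19% in WT (SD, n = 3 each), a difference smaller than the spread among KO libraries. The intervals cover counting error only, since reads of 1 molecule are not independent. Leading segments were picked within each library, which raises their share at low counts, and the intervals do not cover this. WT libraries had only 206, 92 and 560 V counts, and the shares were not compared at equal V counts.

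The same split appeared in other measures of evenness. Counts reached 50% of the V total with 4, 4 and 13 segments in KO libraries and with 8, 10 and 11 in WT libraries. The effective number of segments, which is the inverse of the summed squared shares and falls as a few segments dominate, was 9.29, 12.7 and 35.0 in KO libraries, against 20.3, 27.3 and 32.8 in WT libraries. Both measures are biased downward at low counts, and only the effective number was corrected for sample size. Corrected, it was 9.29, 12.7 and 35.1 in KO libraries and 22.4, 38.4 and 34.8 in WT libraries. KO libraries 1 and 2 were thus the narrowest, and KO library 3 was close to WT libraries 2 and 3. Segment lengths, 338 to 501 bases with a median of 359, made little difference: per kilobase the 10 leading segments held 76.8, 70.8 and 43.7% in KO libraries and 58.8, 49.7 and 47.9% in WT libraries.

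**Figure D2:**
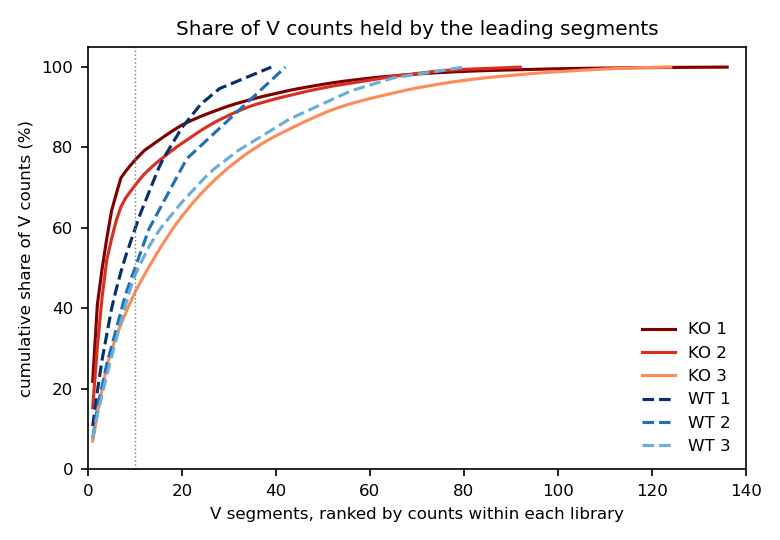
Cumulative share of V counts in percent (y axis) against V segments ranked by counts within each library (x axis), for KO libraries (red, solid) and WT libraries (blue, dashed), with a dotted line at 10 segments. At that line KO libraries 1 and 2 stand at 76.9% and 70.6%, above the WT libraries at 48.2 to 59.7%, and KO library 3 stands lowest at 44.0%. The curves are at unequal V counts, and the low counts of the WT libraries raise theirs.

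In KO library 1, a single heavy and a single kappa segment dominated. Ighv14-4 took 3564 of its 7916 Ighv counts, or 45.0% (95% Wilson interval 43.9 to 46.1). Igkv8-19 took 4068 of 9890 Igkv counts, or 41.1% (40.2 to 42.1). Neither segment was common elsewhere: Ighv14-4 had 0 and 102 counts in KO libraries 2 and 3 and 0, 0 and 4 in WT libraries, and Igkv8-19 had 0 and 57 counts in KO libraries 2 and 3 and 0, 0 and 3 in WT libraries. In KO library 2 the count of 0 allows a share of up to 0.3125% of Ighv counts and 0.273% of Igkv counts. Bulk counts do not show whether both chains came from the same cells. Their closest relatives by sequence had few counts: over all libraries Ighv14-4 had 3670 and Ighv14-1 (97.4% identity) had 11, and Igkv8-19 had 4128 and Igkv8-28 (97.7% identity) had 22.

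KO library 2 was led by other segments. Ighv1-81 took 327 of its 960 Ighv counts (34.1%, 31.1 to 37.1) and Ighv1-69 took 261 (27.2%, 24.5 to 30.1). Ighv1-69 had 6 and 2 counts in KO libraries 1 and 3 and 0, 0 and 5 in WT libraries, so its use was largely that of 1 library. Among its 1098 kappa counts, Igkv6-17 took 324 (29.5%, 26.9 to 32.3) and Igkv1-110 took 200, or 18.2%. Igkv6-17 had 6 and 31 counts in KO libraries 1 and 3, against 9, 0 and 13 in WT libraries.

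KO library 3 had no segment of comparable weight. Its leading heavy segment, Ighv1-39, took 561 of 4010 Ighv counts (14.0%, 13.0 to 15.1), and its leading kappa segment, Igkv8-24, took 678 of 4927 Igkv counts (13.8%, 12.8 to 14.8). Ighv1-39 had 0 and 5 counts in KO libraries 1 and 2 and 0, 0 and 2 in WT libraries. Igkv8-24 had 51 and 4 counts in KO libraries 1 and 2, against 0, 0 and 4 in WT libraries. Igkv3-4 was likewise high in this library, with 4, 0 and 583 counts in KO libraries and 3, 0 and 0 in WT libraries, as was Ighv5-17, with 2, 6 and 352 counts in KO libraries and 0, 3 and 0 in WT libraries. Each of these 4 segments was thus carried by 1 KO library.

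In the WT libraries the leading segments rested on few counts. The most used heavy segments were Ighv6-3 with 16 counts in library 1, Ighv1-81 with 7 in library 2 and Ighv10-1 with 28 in library 3. The most used kappa segments were Igkv1-135 with 22, Igkv1-110 with 7 and Igkv4-59 with 42 counts. A segment at 0 in a WT library may have held up to 1.46, 3.26 and 0.536% of the V counts of WT libraries 1, 2 and 3, which limits what can be said of absence there. Ighv6-3, Ighv10-1, Igkv1-135 and Igkv4-59 also had 1 to 177 counts in each KO library.

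**Figure D3:**
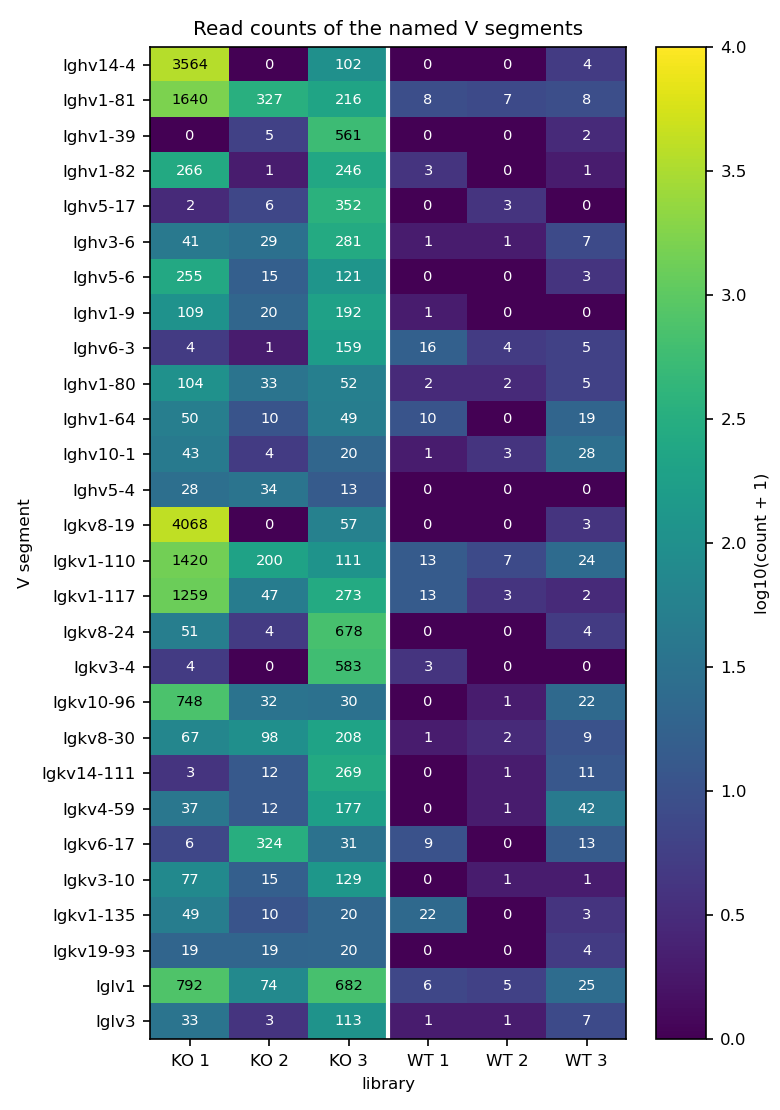
Read counts of the 28 named V segments (rows, by locus) in each KO and WT library (columns), printed in each cell and coloured by log10(count + 1). The brightest cells are Ighv14-4 (3564 counts) and Igkv8-19 (4068 counts) in KO library 1, while Ighv1-81, Igkv1-110, Igkv1-117 and Iglv1 have counts in all 6 libraries.

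Most segments were shared by some but not all libraries. Of the 172 segments, 41 were seen in 1 library, 28 in 2, 42 in 3, 28 in 4, 20 in 5 and 13 in all 6. The 41 segments seen in a single library held 1.37% of all V counts and the 13 seen in every library held 27.9%. The 42 segments seen in 3 libraries held 37.2%, with Ighv14-4 and Igkv8-19 among them.

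The 13 segments in every library were Ighv1-81, Ighv1-80, Ighv3-6, Ighv6-3, Ighv10-1, Igkv1-110, Igkv1-117, Igkv2-137, Igkv3-2, Igkv6-23, Igkv8-30, Iglv1 and Iglv3. They took 29.3, 40.4 and 22.4% of V counts in KO libraries and 35.4, 45.7 and 22.9% in WT libraries, so that their share varied within each group and overlapped between the groups. Within the KO libraries 72 segments were seen in all 3, and within the WT libraries 14 were.

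KO and WT libraries overlapped widely in which segments they used. Any KO library held 163 segments and any WT library 102, with 93 in both. The 93 were 57.1% of the KO list and 91.2% of the WT list. Segments seen in KO libraries alone numbered 70 and held 2940 counts, or 9.62% of KO V counts, led by Ighv3-8 with 309, 19 and 0 counts in KO libraries and 0, 0 and 0 in WT libraries. Segments seen in WT libraries alone numbered 9 with 24 counts in all. Ighv1-58 led them, with 0, 0 and 0 counts in KO libraries and 7, 1 and 1 in WT libraries. KO libraries held 30574 V counts in all and WT libraries 858, so segments could go unseen in WT libraries through low counts alone. The numbers of 70 and 9 therefore do not show segments particular to a genotype. Ighv3-8 and Ighv1-58 were named after their values were seen.

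Similarity between libraries of the same genotype overlapped with similarity across genotypes. Shared segments numbered 83 for KO libraries 1 and 2 (61.0% and 90.2% of their lists), 101 for 1 and 3 (74.3% and 81.5%) and 77 for 2 and 3 (83.7% and 62.1%). They numbered 18 for WT libraries 1 and 2 (46.2% and 42.9%), 25 for 1 and 3 (64.1% and 31.25%) and 30 for 2 and 3 (71.4% and 37.5%). Fewer segments could be shared where fewer V counts were read, as in the WT pairs. The Morisita-Horn index weighs segments by their shares and runs from 0 with no shared segment to 1 with equal shares. It was 0.272, 0.198 and 0.208 for the KO pairs, 0.456, 0.274 and 0.400 for the WT pairs, and 0.181 to 0.439 (median 0.290) for the 9 pairs of a KO and a WT library. Both ranges within a genotype overlapped the range across genotypes, and the 3 KO pairs lay below the 3 WT pairs, at the closest by 0.272 against 0.274. Since pairs share libraries, no test was made.

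**Figure D4:**
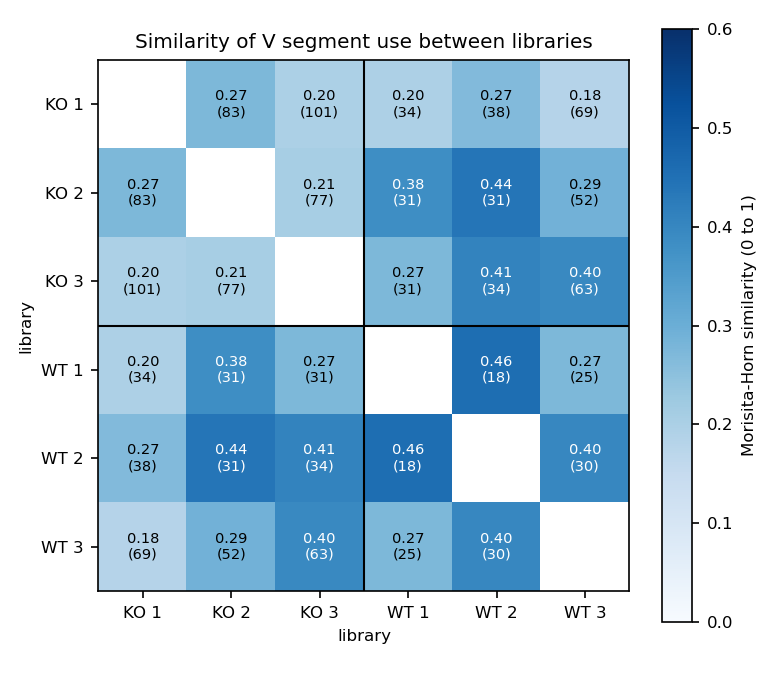
Morisita-Horn similarity of V segment shares for each pair of libraries (rows and columns, KO before WT; colour scale 0 to 0.6), with the number of shared segments in parentheses. KO pairs lie at 0.20 to 0.27 with 77 to 101 shared segments, WT pairs at 0.27 to 0.46 with 18 to 30, and KO with WT pairs at 0.18 to 0.44.

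Families, which group V segments by sequence, varied widely in share among libraries of each genotype. The large Ighv1 family, with 46.9% of the annotated heavy V genes, took 40.2, 77.9 and 56.0% of Ighv counts in KO libraries and 61.3, 55.6 and 39.4% in WT libraries. Ighv14 took 45.3, 2.29 and 7.98% in KO libraries, against 0, 0 and 6.38% in WT libraries, with 3.54% of the genes. Its share in KO library 1 was almost all Ighv14-4. Ighv6 took 0.808, 2.92 and 4.04% in KO libraries and 30.7, 22.2 and 4.79% in WT libraries, without overlap between the groups, on 64, 28 and 162 counts in KO libraries and 23, 10 and 9 in WT libraries, with 4.04% and 4.79% at the closest. Ighv3 separated in the other direction, with 4.64, 5 and 7.36% in KO libraries and 1.33, 2.22 and 3.72% in WT libraries, on 1, 1 and 7 counts in WT libraries. These were the 2 of 12 Ighv families seen whose shares did not overlap between the groups. With 3 libraries in each group some families can separate by chance, and these separations were not tested.

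Among kappa families, Igkv8 took 42.7, 10.2 and 22.0% of Igkv counts in KO libraries and 0.806, 5.26 and 6.23% in WT libraries. It was the 1 of 17 Igkv families seen whose shares did not overlap, on only 1, 2 and 21 counts in WT libraries. Such a separation can also arise by chance among that many families, and it was not tested. Igkv4, the family with the most genes (26% of them), took 3.66, 5.37 and 14.8% in KO libraries, against 6.45, 18.4 and 33.8% in WT libraries. Igkv1 took 27.6, 23.4 and 8.40% in KO libraries and 38.7, 26.3 and 8.61% in WT libraries, a range that overlapped widely. Igkv6 was high in KO library 2, through Igkv6-17, at 30.2%, and took 3.55 and 6.35% in KO libraries 1 and 3, against 16.9, 10.5 and 7.72% in WT libraries.

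**Figure D5:**
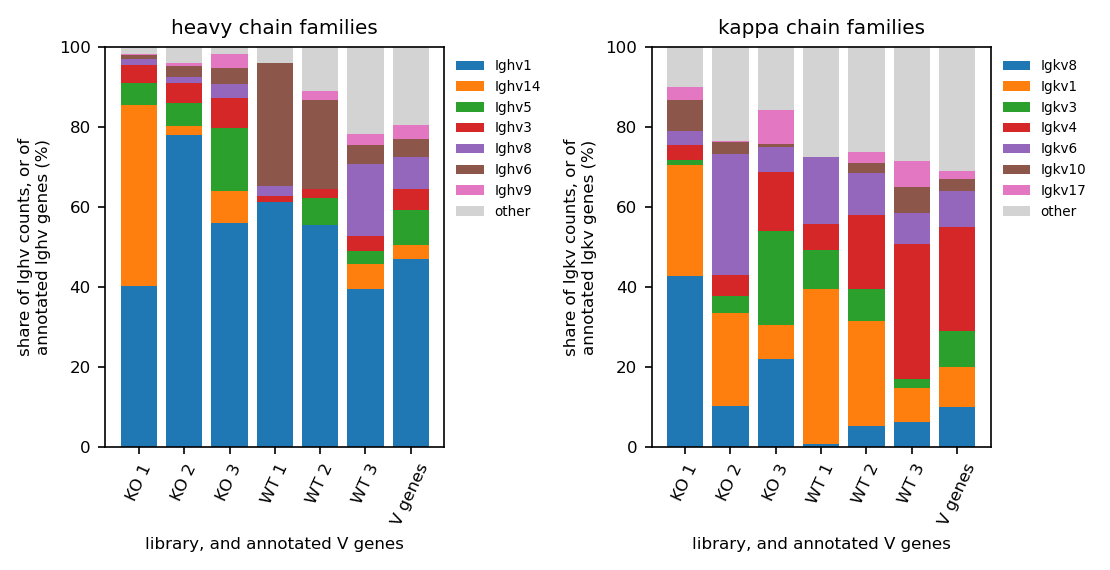
Share of Ighv counts (left) and Igkv counts (right) in percent held by the 7 leading families of each locus and by the others (grey), for each KO and WT library and, in the last bar, for the annotated V genes. Ighv14 fills 45.3% of the bar of KO library 1 and Ighv1 77.9% of that of KO library 2, while Igkv8 takes 42.7% of kappa counts in KO library 1.

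Use also ranged over the whole length of each locus. The annotated Ighv genes lie at a median of 1190 kb from Ighm, the constant gene of IgM. The count-weighted median distance was 754, 2200 and 1324 kb in KO libraries and 1736, 1116 and 1492 kb in WT libraries. For Igkv the median distance from Igkc, the kappa constant gene, was 1318 kb over annotated genes, 902, 1288 and 609 kb over counts in KO libraries and 1796, 2094 and 1541 kb in WT libraries. The kappa distances were shorter in each KO library than in each WT library, where they rested on only 121, 38 and 337 counts. This difference was not tested. Igkv8-19 and Igkv8-24, which led the kappa counts of KO libraries 1 and 3, lie 385 and 509 kb from Igkc. Some Igkv genes lie on the strand of Igkc and others on the opposite one, and the share of counts from the same strand was 38.6, 65.4 and 53.9% in KO libraries and 63.6, 57.9 and 36.2% in WT libraries.

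Lambda V segments were a minor part of light chain use in both groups. Iglv counts were 7.71, 6.63 and 15.0% of light chain V counts in KO libraries and 5.34, 19.1 and 9.41% in WT libraries. Lambda constant genes gave 3.59, 4.93 and 8.83% of light chain constant counts in KO libraries and 3.41, 8.78 and 4.66% in WT libraries. The share thus overlapped between groups on both measures. Iglv1 had 792, 74 and 682 counts in KO libraries and 6, 5 and 25 in WT libraries, and led the locus in each. Iglv3 had 33, 3 and 113 counts in KO libraries, against 1, 1 and 7 in WT libraries. Iglv2, which is 96.3% identical to Iglv1, had 1, 1 and 74 counts in KO libraries and 0, 3 and 3 in WT libraries.

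Set against constant gene counts, V counts overlapped between the groups. Ighv counts per count on the heavy constant genes were 0.135, 0.120 and 0.0917 in KO libraries and 0.0418, 0.0857 and 0.110 in WT libraries. Igkv counts per Igkc count were 0.386, 0.363 and 0.260 in KO libraries, against 0.104, 0.203 and 0.305 in WT libraries. The means were 0.116 ± 0.0221 in KO and 0.0792 ± 0.0346 in WT for the heavy chain and 0.336 ± 0.0668 in KO and 0.204 ± 0.100 in WT for kappa (SD, n = 3 each), with WT library 1 lowest on both. Among the joining genes, the short pieces joined to V segments, 10 of 14 had counts, which summed to 111, 36 and 16 in KO libraries and 0, 15 and 13 in WT libraries, and 0 of 20 D genes had any.

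The comparison of KO with WT by segment was limited by low counts. The low-count filter of edgeR kept 29 of the 172 segments (11 Ighv, 17 Igkv and 1 Iglv), with 41.2% of V counts, and left out 143 with 58.8%, among them Ighv14-4 and Igkv8-19. Since WT counts were low, segments passed the filter largely through their KO levels, so the count of calls among them is given as a description. By edgeR's quasi-likelihood test 16 of the 29 were higher in KO at an adjusted p below 0.05 (8 Ighv, 7 Igkv and 1 Iglv) and 0 were lower, with 20 at an unadjusted p below 0.05. Over all 18621 genes tested, 11.2% were higher and 0.226% lower. With no filter 70 of 172 were higher and 0 lower, against 8.71% higher of 33054 genes. In 49 of 172 segments the lowest KO library was above the highest WT library in CPM, against 15.8% of all genes with a count, and in 1, Ighv1-58, the groups separated the other way.

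These calls depended on KO library 1 and on each WT library. Without KO library 1, 0 of 35 tested segments were called higher, although 23 had an unadjusted p below 0.05. Without WT library 1, 2 or 3, 0 of 73, 0 of 74 and 0 of 73 were called, with 44, 50 and 65 at an unadjusted p below 0.05. In these 4 fits edgeR called 0 genes of the whole table, with 3461 to 4931 at an unadjusted p below 0.05. Without KO library 2, 54 of 67 segments were called higher, beside 4449 of 19592 genes of the whole table. Without KO library 3, 10 of 32 were, beside 943 of 19432 genes. DESeq2 and limma-voom were run on the 6 libraries alone. DESeq2 called 16 of 29 segments higher, with 4 lacking an adjusted p, beside 3266 of 18621 genes. Its 16 were not those of edgeR, since they included Igkv6-17 and Igkv19-93 (DESeq2 adjusted p = 0.0148 and 0.0202). Limma-voom called 4 of 29 segments higher, beside 988 of 18621 genes.

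The 10 segments with the smallest p had counts in all 3 KO libraries and few in WT. The filter and the choice by p both favour this pattern and a separation of the groups, so their values are given as a description. Ighv1-81 had 1640, 327 and 216 counts in KO libraries and 8, 7 and 8 in WT libraries. It averaged 25.3 ± 26.4 CPM over KO libraries and 0.219 ± 0.0193 CPM over WT libraries (SD, n = 3 each), a log2 fold change of 6.83 (SE 0.90, edgeR adjusted p = 0.0246). Every KO library was above every WT library although KO levels spread widely.

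Ighv1-9 had 109, 20 and 192 counts in KO libraries and 1, 0 and 0 in WT libraries. Ighv1-80 had 104, 33 and 52 counts in KO libraries, against 2, 2 and 5 in WT libraries, a log2 fold change of 4.71 (SE 0.82, edgeR adjusted p = 0.0246). It was one of the more even segments across KO libraries. Ighv5-6 had 255, 15 and 121 counts in KO libraries and 0, 0 and 3 in WT libraries. Ighv5-4, its close relative at 95.5% identity, had 28, 34 and 13 counts in KO libraries and 0, 0 and 0 in WT libraries, at least 31.1-fold higher per TMM-scaled library size when 3 counts over the WT group are taken as the limit. None of these 4 segments overlapped between the groups, which the choice by p favours.

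Among the kappa segments, Igkv1-110 had 1420, 200 and 111 counts in KO libraries and 13, 7 and 24 in WT libraries, a log2 fold change of 5.54 (SE 1.09, edgeR adjusted p = 0.0254). Igkv1-117 had 1259, 47 and 273 counts in KO libraries, against 13, 3 and 2 in WT libraries, with a log2 fold change of 6.80 (SE 1.37). The spliced sequences of this pair are 97.5% identical, so reads could be split between them. Igkv8-30 had 67, 98 and 208 counts in KO libraries and 1, 2 and 9 in WT libraries, a log2 fold change of 5.42 (SE 1.04, edgeR adjusted p = 0.0250). Igkv3-10 had 77, 15 and 129 counts in KO libraries and 0, 1 and 1 in WT libraries, a ratio of 138 per TMM-scaled library size (95% counting interval 37.6 to 1143). Its nearest relative, Igkv3-5, is 98.3% identical.

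Iglv1, the lambda segment that passed, had the counts given above and a log2 fold change of 5.90 (SE 1.17, edgeR adjusted p = 0.0260). Over the alternatives, left-out libraries included, the adjusted p of these 10 segments ran from 1.94e-14 to 0.120. The other 6 segments called were Ighv1-26, Ighv1-55, Ighv3-6, Igkv2-137, Igkv3-2 and Igkv9-120, with log2 fold changes from 2.88 for Igkv3-2 to 6.03 for Igkv9-120. Igkv3-2 was the lowest of the 16 in size of change and among the most even, with 19, 20 and 11 counts in KO libraries and 2, 2 and 4 in WT libraries.

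The 5 tested segments nearest to the threshold that did not pass included 3 that were high in 1 KO library. Igkv19-93 had 19, 19 and 20 counts in KO libraries and 0, 0 and 4 in WT libraries (edgeR adjusted p = 0.0668), and was the exception in being even across KO. Igkv10-96 had 748, 32 and 30 counts in KO libraries, against 0, 1 and 22 in WT libraries (edgeR adjusted p = 0.0944). Igkv6-17, described above, had an adjusted p of 0.116 by edgeR. The groups overlapped for Igkv6-17, as they did for Igkv14-111 and Ighv1-64. Igkv14-111 had 3, 12 and 269 counts in KO libraries and 0, 1 and 11 in WT libraries (edgeR adjusted p = 0.125), and Ighv1-64 had 50, 10 and 49 in KO libraries and 10, 0 and 19 in WT libraries (edgeR adjusted p = 0.216). Over the alternatives the adjusted p of these 5 ran from 0.00580 to 0.693, and DESeq2 gave none for Igkv10-96 and Igkv14-111.

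Segments below the filter could still differ greatly in summed counts while resting on 1 library. Ighv14-4 averaged 42.1 ± 68.6 CPM over KO libraries and 0.0397 ± 0.0687 CPM over WT libraries, and Igkv8-19 averaged 47.1 ± 79.1 CPM over KO libraries and 0.0298 ± 0.0515 CPM over WT libraries (SD, n = 3 each). The SD exceeded the mean in KO for both, and KO library 2 had 0 counts of each.

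Sequence likeness among the segments was high. Every one of the 172 had a GENCODE sequence, and the median identity to the nearest other segment was 95.2% (56.5 to 99.2). In 88 it was at least 95% and in 11 at least 98%.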

How the data were processed

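Gene expression was measured by RNA-seq (Smart-seq2, per the labels' protocols) in 6 libraries, 3 KO and 3 WT. The authors deposited raw counts, with whole reads per gene in 1 column per library and a featureCounts-style layout per the file headers. The submitters' processing notes name the mm10 build and DESeq2. Aligner, strand setting and handling of multiply aligned reads are not given in these sources, so counts of near-identical, overlapping or antisense segments are uncertain. The headers carry serial numbers that do not interleave between KO and WT, with no stated meaning. Whatever order they mark cannot be told apart from genotype. Library totals ran from 24369359 to 40574093 counts. A count of 0 was taken to allow 3 counts.

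KO was compared with WT over the whole table with the two-sided quasi-likelihood F test of edgeR 4.0.16 (limma 3.58.1, R 4.3.3; TMM scaling, filterByExpr defaults, genotype as the only term) and Benjamini-Hochberg adjustment at 0.05. Each log2 fold change's standard error (SE) was taken from the fold change and F (its absolute value over the root of F). CPM values are counts in every 1000000 of the TMM-scaled library size. Wilson intervals and exact binomial counting intervals of ratios are at 95%. Since the labels do not say that libraries are separate animals, p-values measure only the spread among these 6 samples, possibly a technical one. Expected segment numbers came from analytical rarefaction. Of the 55291 symbols 52905 matched GENCODE M21, which gave classes, positions and spliced sequences. Identity is over global alignments of spliced sequences (Biopython 1.88).

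The segments and lists were chosen with earlier results of these data known. Named segments were the 6 Ighv, 6 Igkv and 2 Iglv with the highest mean CPM over the 6 libraries, the leading segment of each locus in each library, the 10 with the smallest p of those past the threshold and the 5 nearest to it that did not pass, with the closest pairs by sequence. Ighv1-69, Igkv3-5 and others named as runners-up, relatives or extremes were added after their values were seen. Alternatives were RLE scaling, no composition scaling, no low-count filter, a stricter filter (1 CPM in 3 libraries), DESeq2 1.42.0, limma-voom, robust fitting, each library left out, other minimum counts for a segment to be seen, pseudogenes left out, counts per kilobase and merged near-identical copies. Recombination signals, promoters and proteins of the segments were not analysed here.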

Additional observations from a re-analysis of the deposited data

How the results depend on the processing

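No paired analysis was possible because the labels carry no replicate numbers and those used here only name libraries. The count of V segments called higher in KO was 16 of 29 in the main test and 15, 15, 16 and 16 with RLE scaling, no composition scaling, DESeq2 (4 segments without an adjusted p) and robust fitting. It was 70 of 172 with no low-count filter, 6 of 8 with the stricter filter and 4 of 29 with limma-voom, where fewer or more segments entered in the filter settings and the cause was not tested for limma-voom. With 1 library left out it ran from 0 to 54, and 0 segments were called lower in any of these fits. Genes called higher over the whole table moved as well, from 2083 of 18621 in the main test. They were 1799, 1711, 3266 and 2018 of 18621 with RLE scaling, no composition scaling, DESeq2 and robust fitting. They were 2880 of 33054 with no low-count filter, 2120 of 15921 with the stricter filter and 988 of 18621 with limma-voom. With 1 library left out they ran from 0 to 4449. The fold changes of 25 named genes kept their direction in all 310 alternative values, each of 1 gene in 1 alternative fit. Of these values 82 lost the call and 9 gained it. Of the 82, 72 came with a library left out, 9 with limma-voom and 1, Siglece, with no composition scaling.

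The mean number of segments seen was 69.3 in KO and 7.0 in WT at 10 counts or more, and 33.4 in KO at the smallest V total of 92, where the WT mean was 38.3. With 1 library left out it ran from 108 to 130 in KO and from 40.5 to 61 in WT. The share of the leading segments fell to 32.7% in WT when 5 were taken in place of 10, by construction, and leaving out 1 library gave 57.3 to 73.7% in KO and 49.1 to 54.9% in WT. Segments seen in all 6 libraries numbered 3 at 3 counts or more and 0 at 10, and 13 to 22 with 1 library left out. Those seen in all KO libraries numbered 21 at 10 counts or more, and 77 to 101 with 1 left out. Those seen in all WT libraries numbered 4 at 3 counts or more and 0 at 10, and 18 to 30 with 1 left out. The mean summed level ran from 274.9 to 561.3 CPM in KO and from 4.12 to 11.1 CPM in WT with 1 library left out. Merging segments at least 98% identical could not move the leading share, since no merged segment was among the 10 leading ones of a library, so that reads split among leading segments were not assessed. The low V totals of the WT libraries limit every statement on segments absent there.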
